A study of Mus musculus with 30 samples.

Results

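The immunoglobulin heavy chain V segments (Ighv) are the gene pieces that encode most of the variable domain of an antibody heavy chain. They were taken as all genes whose symbol holds Ighv followed by a family number and a segment number and whose counts summed to at least 10 over the 30 libraries of 5 count matrices. This gave 127 segments, out of 185 genes with such a symbol and 48709 genes in each matrix. Of the other 58 genes, 42 had no count in any library and 16 had 1 to 9 counts. The minimum was decided by few counts: Ighv1-28 and Ighv1-62 were kept with 12 counts each, and Ighv8-9 was left out with 8.

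RNA of whole tissue was sequenced from adult C57BL/6 mice for brain, kidney, liver, muscle (quadriceps femoris) and spleen, with 3 libraries of wild-type (WT) mice and 3 of Ctcf+/- mice in each tissue. All mice shared the C57BL/6 strain, and the Ctcf+/- mice carried 1 working copy of Ctcf, the gene of a zinc-finger factor that shapes chromatin loops. The study's design names 3 WT and 3 Ctcf+/- mice for the 5 tissues, so libraries of different tissues share mice, but the labels do not say that libraries with the same number come from the same mouse. Whole tissue was used, so a lower level can mean fewer cells of a type or less RNA per cell, and these cannot be told apart.

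A developing B cell joins 1 V segment to a D and a J segment on each rearranged heavy chain allele, and its descendants keep that choice. Ctcf binds at many places of the heavy chain locus, where loops bring distant V segments close to the D and J segments. Resting B cells carry little heavy chain RNA and plasma cells, which secrete antibody, carry very much, so in whole tissue the V counts are weighted toward the clones of plasma cells.

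The 127 segments lay on the minus strand of chromosome 12 between positions 113572927 and 116010093 (GRCm38, 2437 kb), beyond the 20 D segments at 113430528 to 113526809. None of them shared an exon with another annotated gene. The annotation listed 104 as V genes and 23 as V pseudogenes. Families lie largely in blocks along the locus. The proximal families Ighv2 and Ighv5 held 20 segments, the distal families Ighv1 and Ighv8 held 76, and all other families, called the middle families here, held 31. Ighv1 alone had 67 members.

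The ends of 8 segments that led a library or stood out in 1 are shown, because the results below turn on them. Each is the last 120 bases of the coding sequence in GENCODE M21 (GRCm38), 5′ to 3′ on the minus strand, and capitals mark the codon of the conserved cysteine at which the third complementarity-determining region, the part that rearrangement makes, begins.
Ighv8-8: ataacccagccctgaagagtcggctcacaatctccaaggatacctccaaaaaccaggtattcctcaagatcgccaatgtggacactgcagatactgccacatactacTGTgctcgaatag
Ighv5-4: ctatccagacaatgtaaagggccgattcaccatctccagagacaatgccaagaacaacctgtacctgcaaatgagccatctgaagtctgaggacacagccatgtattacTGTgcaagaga
Ighv2-3: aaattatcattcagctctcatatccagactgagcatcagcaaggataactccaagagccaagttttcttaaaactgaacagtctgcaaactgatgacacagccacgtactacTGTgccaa
Ighv1-26: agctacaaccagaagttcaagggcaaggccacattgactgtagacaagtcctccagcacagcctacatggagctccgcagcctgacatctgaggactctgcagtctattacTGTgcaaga
Ighv1-53: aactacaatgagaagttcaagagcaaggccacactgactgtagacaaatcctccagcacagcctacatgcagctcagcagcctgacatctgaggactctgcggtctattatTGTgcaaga
Ighv1-80: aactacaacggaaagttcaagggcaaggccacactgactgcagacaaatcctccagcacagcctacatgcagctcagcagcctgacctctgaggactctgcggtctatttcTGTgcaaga
Ighv6-3: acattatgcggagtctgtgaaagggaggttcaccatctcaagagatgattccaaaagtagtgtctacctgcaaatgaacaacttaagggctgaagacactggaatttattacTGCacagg
Ighv12-3: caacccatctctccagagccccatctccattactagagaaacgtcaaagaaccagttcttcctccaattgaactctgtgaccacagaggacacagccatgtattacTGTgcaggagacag

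These stretches lie on chromosome 12 at chr12:115294062-115294181 for Ighv8-8, chr12:113597446-113597565 for Ighv5-4, chr12:113611187-113611306 for Ighv2-3 and chr12:114788372-114788491 for Ighv1-26. The others lie at chr12:115158403-115158522 for Ighv1-53, chr12:115912344-115912463 for Ighv1-80, chr12:114391712-114391831 for Ighv6-3 and chr12:114366521-114366640 for Ighv12-3. All are in the second of 2 exons, which encodes the V domain after a short leader exon. The whole coding sequences of these 8 segments were 53.1% to 86.0% identical to each other, with the 3 Ighv1 segments at 85.5% to 86.0%.

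Among V genes, 103 of 104 had such a cysteine codon in frame within the last 40 bases, and 103 of 104 kept an open reading frame from the first ATG. Among the 23 pseudogenes 14 had the cysteine codon and none had an open frame. Many segments are near copies of a neighbour, which bears on how reads can be assigned. The share of a segment's 50-base words that occur in no other Ighv sequence had a median of 80.1%. It was under 50% for 14 of the 104 V genes, including Ighv1-53 with 42.4%, Ighv2-4 with 44.5% and the pair Ighv1-62-2 and Ighv1-71 with 2.58% each. Ighv1-62-2 and Ighv1-71 were 99.7% identical, so their values may hold each other's reads. Ighv1-26 was 96.9% identical to Ighv1-18 and Ighv8-8 was 96.1% identical to Ighv8-5.

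Library totals were 49.8 to 132 M counts over the 30 libraries and 77.9 to 91.4 M in spleen. Levels are CPM (counts relative to 1 M in the library) scaled by the trimmed mean of M-values (TMM) within a tissue. A count of 0 allows up to 3 counts, or 0.0229 to 0.0606 CPM. Intervals and this limit cover counting error only. In spleen, Ctcf itself stood at 176, 229 and 195 CPM in the WT libraries and 134, 105 and 154 CPM in the Ctcf+/- libraries, without overlap (log2 fold change -0.61 ± 0.19 SE, edgeR adjusted p = 0.914). In its V usage the library labelled Ctcf+/- liver replicate 2 went against its number and resembled the Ctcf+/- libraries numbered 1, so the liver calls are given with and without it. The B cell marker list (11 genes, such as Ms4a1 and Cd79a) summed to 4890 to 6913 CPM in spleen and to at most 22.8 CPM in any other tissue.

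The spleen libraries held 99.1% of all Ighv counts. In the WT spleens 46818, 71566 and 108072 counts fell on Ighv segments in replicates 1, 2 and 3, and in the Ctcf+/- spleens 203543, 47188 and 149352. Each spleen library detected 122 to 127 segments. Kidney libraries held 171 to 1929 Ighv counts and liver libraries 111 to 619. Brain had 2 to 39 and muscle 0 to 13, from at most 11 segments in a library, and no leading segment or diversity is given for these 12 libraries.

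As levels, the 6 spleens stood at 650 to 2035 CPM summed over the segments, the kidneys at 1.73 to 20.4 CPM and the livers at 1.82 to 8.34 CPM. The highest brain library had 0.298 CPM and the highest muscle library 0.128 CPM. In a fit of all 30 libraries, 111 of the 127 segments passed the filter on low counts and all 111 were called higher in spleen than in the mean of the other tissues (edgeR, adjusted p under 0.05 and log2 fold change over 1), beside 31.7% of all genes tested. Most segments could pass the filter only through spleen, so nothing is read from that count. Ighv1-26, for example, differed by 10.11 ± 0.29 (log2, SE), and Ighv8-8, which was also seen in liver and kidney, by 9.03 ± 0.70. Outside spleen, 23 of the 127 segments had no count in any library and 60 had 3 or fewer in every library.

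**Figure D1:**
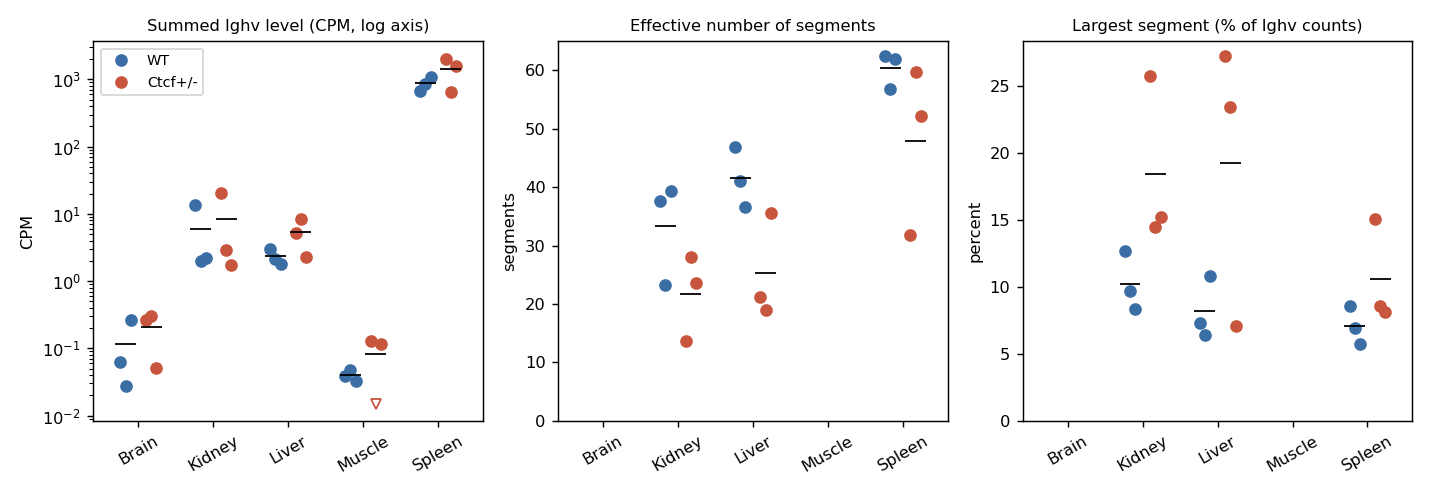
Summed Ighv level (CPM, log axis), effective number of segments and share of the largest segment in every library, by tissue and genotype; points are libraries and lines are means of 3, and the open triangle is a muscle library with no Ighv count. Spleen lies between 650 and 2035 CPM, and diversity is drawn only for the 18 libraries with at least 100 Ighv counts.

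Among the segments themselves, levels in spleen were very uneven, and the 10 highest segments of a library took 34.8% to 63.9% of its Ighv counts, the most in Ctcf+/- replicate 1. Ighv1-26, an Ighv1 segment 1262 kb from the D segments, had the highest mean over the 6 spleens. Its level was 58.5, 46.6 and 62.3 CPM in WT and 73.3, 55.9 and 107 CPM in Ctcf+/- spleens, and it was the leading segment in 3 of the 6. As a share of the Ighv counts it ran from 3.60% in Ctcf+/- replicate 1 to 8.60% in Ctcf+/- replicate 2.

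Ighv8-8 and Ighv5-4 came next by their means, but through 1 library. Ighv8-8 was at 8.12, 14.6 and 16.5 CPM in WT and at 307, 11.6 and 43.9 CPM in Ctcf+/- spleens. Ighv5-4 was at 9.59, 7.70 and 12.8 CPM in WT and at 282, 8.84 and 35.4 CPM in Ctcf+/- spleens. Both were highest in Ctcf+/- replicate 1, second in Ctcf+/- replicate 3, and within the WT range in Ctcf+/- replicate 2. The other segments among the 10 highest were Ighv1-80, Ighv3-6, Ighv1-53, Ighv1-9, Ighv9-3, Ighv6-3 and Ighv1-55, with means of 34.0 to 54.1 CPM.

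V genes had a median of their spleen means of 6.06 CPM and pseudogenes of 0.0562 CPM. Pseudogenes took 0.346%, 0.380% and 0.331% of the Ighv counts in WT and 0.205%, 0.307% and 0.262% in Ctcf+/- spleens. Their share was thus lower in every Ctcf+/- library, a difference that was not tested. A share is relative to the summed Ighv level, which differed between the spleens, so this is not read as a lower pseudogene level. The annotated pseudogenes reached 0.725 CPM at most. The nearest segment to the D segments, the pseudogene Ighv5-1, had a mean of 0.089 ± 0.019 CPM in WT and 0.010 ± 0.010 CPM in Ctcf+/- spleens (SD, n = 3), from 26 counts in all libraries. Its neighbour Ighv5-2, a V gene, stood at 1.20 ± 0.40 and 1.32 ± 0.74 CPM. At the far end, Ighv1-85 stood at 4.44 ± 1.29 and 8.50 ± 8.07 CPM, and the last segment, the pseudogene Ighv1-86, had 59 of its 66 counts in the spleen of Ctcf+/- replicate 1.

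Usage did not follow distance in a simple way. Over the 127 segments, the order from the D segments and the mean spleen level had a Spearman rho of -0.11, and over the 104 V genes alone rho was 0.0057. These describe segments that share libraries and are not independent. With the locus cut into 3 parts of equal length, and every library given equal weight, the part nearest the D segments (44 segments) held a mean share of 36.7% over the 6 spleens, the middle part (47 segments) 35.4% and the far part (36 segments) 27.9%. Without Ctcf+/- replicate 1 the means were 36.6%, 37.9% and 25.5%, so the order of the first pair turned with that library.

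By family, Ighv1 with its 67 segments took the most in every spleen, at 44.0% to 52.7%. Ighv5 took 8.09%, 6.40% and 6.41% in WT and 19.3%, 10.4% and 9.08% in Ctcf+/- spleens, and Ighv8 took 2.83%, 3.44% and 3.20% in WT and 16.0%, 3.89% and 4.70% in Ctcf+/-. Both were highest in Ctcf+/- replicate 1, through Ighv5-4 and Ighv8-8, and without that library their mean shares were 8.08% and 3.61%. Ighv2 and Ighv3 had mean shares of 6.00% and 5.97%, highest in Ctcf+/- replicate 3. Ighv10 took 3.66 ± 0.47% in WT and 1.88 ± 1.01% in Ctcf+/- spleens (SD, n = 3). Ighv9 took 5.77%, 5.01% and 4.36% in WT and 3.48%, 2.94% and 2.89% in Ctcf+/- spleens. As shares, Ighv5 and Ighv8 thus lay higher and Ighv9 and Ighv10 lower in every Ctcf+/- spleen, while the other families overlapped. A share is relative to the summed Ighv level, which itself differed between the spleens. Family levels in CPM were not compared, so these shares are not read as higher or lower family levels. The families were not tested one by one.

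**Figure D2:**
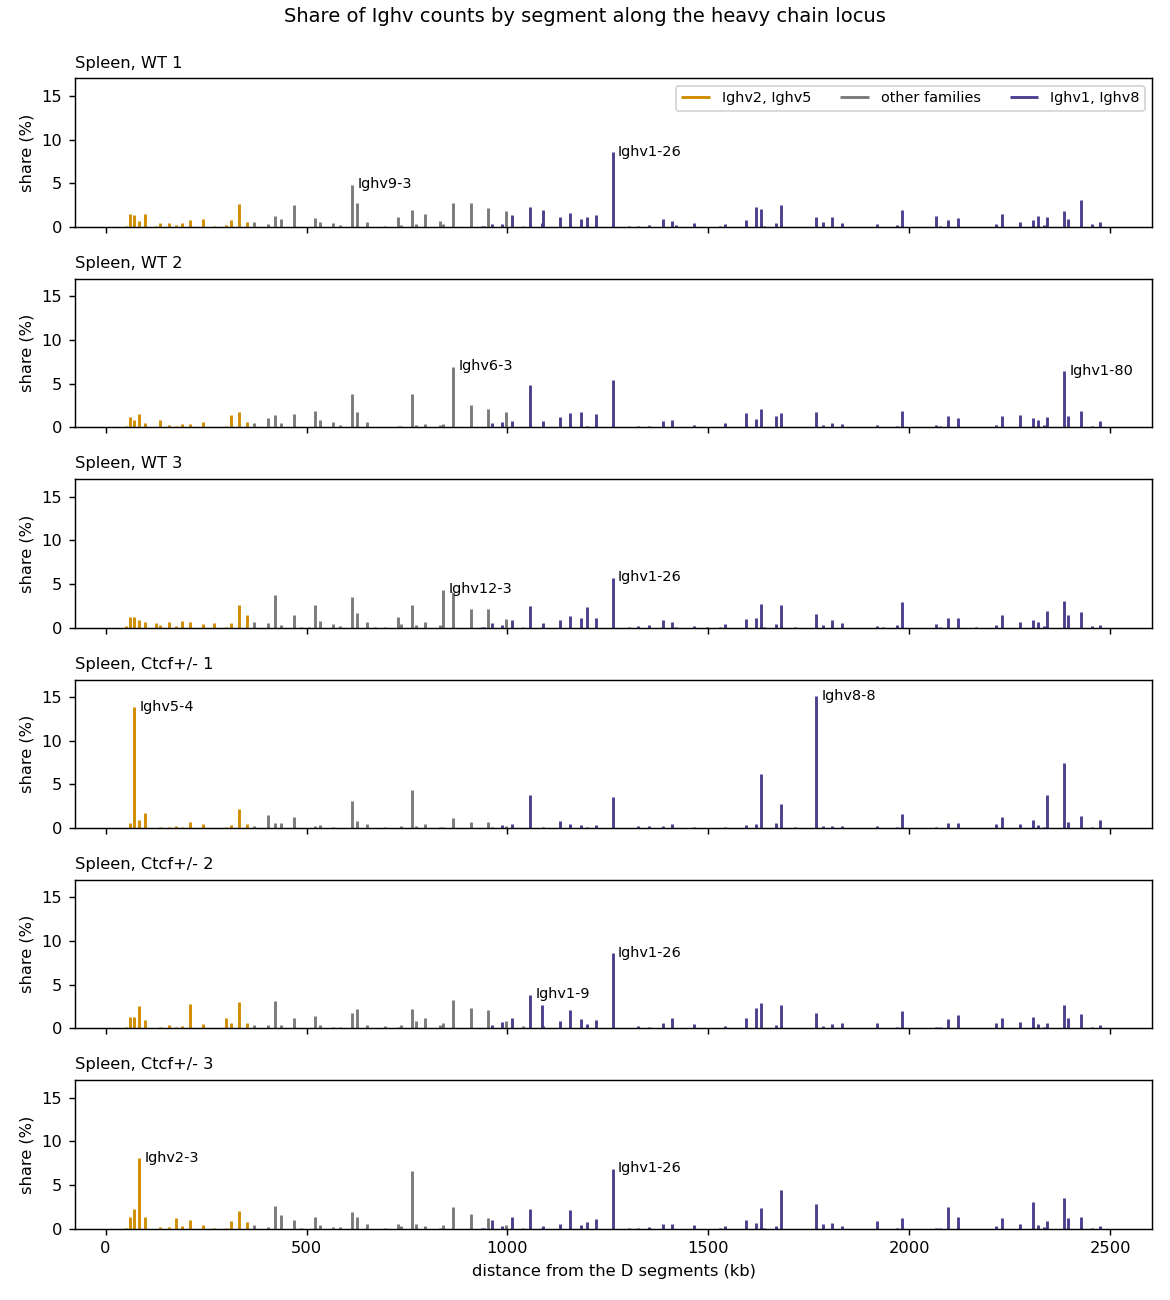
Share of the Ighv counts (%) taken by each of the 127 segments against its distance from the D segments (kb), 1 panel per spleen library, with the 2 largest segments named. Ighv8-8 and Ighv5-4 stand at 15.1% and 13.8% in Ctcf+/- replicate 1 and Ighv2-3 at 8.11% in Ctcf+/- replicate 3.

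The leading segment differed between spleens. In WT it was Ighv1-26 with 8.57% of Ighv counts (95% Wilson interval 8.32% to 8.83%), Ighv6-3 with 6.96% (6.77% to 7.14%) and Ighv1-26 with 5.73% (5.59% to 5.87%). In Ctcf+/- it was Ighv8-8 with 15.1% (14.9% to 15.2%), Ighv1-26 with 8.60% (8.35% to 8.85%) and Ighv2-3 with 8.11% (7.97% to 8.25%). The groups overlapped, at 7.09 ± 1.43% in WT and 10.6 ± 3.9% in Ctcf+/- (SD, n = 3; 2-sided exact permutation p = 0.2, adjusted p = 0.45 over the 9 single values tested). With 3 against 3 libraries this test cannot give a p below 0.1.

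A segment was taken as dominant in a library when it had at least 2% of the Ighv counts and at least 3 times its median share in the other spleens, a rule chosen after the values were seen. WT replicates 1 and 2 had no such segment, and WT replicate 3 had Ighv12-3 with 4.35% against a median of 0.409%, and Ighv1-20. Ctcf+/- replicate 1 had Ighv8-8, Ighv5-4 and Ighv1-78, which together took 32.7%. Ctcf+/- replicate 2 had Ighv5-9-1 and Ighv1-11, and in replicate 3 it was Ighv2-3 and Ighv1-75. Ighv1-11 made up 2.67% of the Ighv counts in replicate 2 and had a median of 0.108% in the other 5 spleens. No dominant segment was shared by 2 spleens.

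The effective number of segments, the exponential of the Shannon entropy of the shares, gives how many equally used segments would be as diverse. It was 62.5, 56.8 and 61.9 in the WT spleens and 31.8, 59.7 and 52.1 in the Ctcf+/- spleens. Replicate 1 of Ctcf+/- was the least diverse, and replicate 2 lay inside the WT range. The means were 60.4 ± 3.1 and 47.9 ± 14.4 (SD, n = 3; exact permutation p = 0.2, adjusted p = 0.45). Without Ctcf+/- replicate 1 the difference shrank from -12.5 to -4.49 segments, and that of the leading share from 3.51 to 1.27 percentage points. Drawn down to the smallest spleen total of 46818 counts, the number of segments expected differed by -0.50.

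The summed level was 683, 860 and 1087 CPM in the WT spleens and 2035, 650 and 1560 CPM in the Ctcf+/- spleens. The Ctcf+/- libraries held the highest, the second highest and the lowest values. On the log2 scale the difference was 0.56 (exact permutation p = 0.4, adjusted p = 0.5), and without Ctcf+/- replicate 1 it was 0.23. Per summed level of B cell markers it was 0.74. Jchain, the joining chain of secreted antibodies, was at 365, 342 and 476 CPM in WT and 1126, 455 and 663 CPM in Ctcf+/- spleens. Its order matched that of the summed Ighv level within the Ctcf+/- spleens but not within the WT spleens. The plasma cell list of 12 genes summed to 1135 to 1448 CPM in WT and 1255 to 2211 CPM in Ctcf+/- spleens, highest in Ctcf+/- replicate 1. The same list summed to 819 to 940 CPM in liver and 422 to 486 CPM in kidney, so it does not measure plasma cells alone. The part of this list in the Ighv values was not tested.

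The constant region genes encode the antibody classes. In spleen 0 of 8 constant region genes were called by edgeR and 4 were higher at an unadjusted p under 0.05, beside 2.55% of all genes tested, with a median log2 fold change of 1.42 beside -0.0044 over all genes tested. Igha, the class of mucosal antibodies, stood at 3780 CPM in Ctcf+/- replicate 1 and between 230 and 1136 CPM in the other 5 spleens. Ighg2b stood at 121, 119 and 125 CPM in WT and 301, 153 and 505 CPM in Ctcf+/- spleens, without overlap. Ighm, the class of B cells that have not switched, was at 3543 to 4488 CPM in WT and 2983 to 5595 CPM in Ctcf+/- spleens. Of the 19 tested genes for rearrangement and control of the locus (such as Rag1, Pax5 and Yy1), 0 were called and only Ctcf was lower at an unadjusted p under 0.05. Of the 11 B cell markers 0 were called, 0 passed an unadjusted p under 0.05 and the median was -0.17.

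Other markers also differed between the spleen groups. A hepatocyte list (6 genes) summed to 32.3 to 41.7 CPM in WT and 0.0900 to 0.262 CPM in Ctcf+/- spleens, and a kidney tubule list (6 genes) to 0.0841 to 0.379 and 12.04 to 24.4 CPM. In liver itself the hepatocyte list summed to at least 145801 CPM and in kidney the tubule list to at least 22714 CPM. The summed Ighv level in those tissues was at most 20.4 CPM. An erythroid list ran from 15518 CPM in WT replicate 3 to 95677 CPM in WT replicate 1. The hepatocyte and kidney tubule lists did not overlap between the genotypes, so what they mark cannot be told apart from genotype. The part of these lists and of the erythroid list in the Ighv values was not tested.

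The grouped shares of the proximal and of the middle families did not overlap between the genotypes in spleen, and that of the distal families did. The proximal families took 12.8%, 11.2% and 12.9% of Ighv counts in WT and 22.2%, 16.2% and 20.5% in Ctcf+/- spleens, so every Ctcf+/- library was higher. The middle families took 32.2%, 34.1% and 36.1% in WT and 17.9%, 27.2% and 26.9% in Ctcf+/- spleens, so every Ctcf+/- library was lower. Both differences, 7.31 and -10.1 percentage points, had the smallest p the test can give (exact permutation p = 0.1, adjusted p = 0.45) and so did not pass. Each share is relative to the summed Ighv level, which differed between the spleens, and a high proximal or distal segment lowers the middle share. Levels of these family groups in CPM were not compared between the genotypes. The grouped shares here and in the paragraphs below are therefore not read as higher or lower levels.

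The distal families took 55.0%, 54.7% and 51.0% in WT and 59.9%, 56.6% and 52.6% in Ctcf+/- spleens, which overlapped (53.6 ± 2.2% and 56.4 ± 3.7%, SD, n = 3; exact permutation p = 0.4, adjusted p = 0.5). By length, the part of the locus nearest the D segments took 35.6 ± 3.8% in WT and 37.7 ± 3.4% in Ctcf+/-, the middle part 39.1 ± 3.2% and 31.8 ± 9.9%, and the far part 25.3 ± 1.2% and 30.5 ± 8.6%. These 3 shares overlapped between the genotypes (exact permutation p = 0.5, 0.4 and 0.5; adjusted p = 0.5 for each).

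The family shares were also computed without Ighv5-4, Ighv2-3 and Ighv8-8. These were left out because they were seen to be high in Ctcf+/- libraries, so a smaller proximal difference followed from the choice, and no test is given. The proximal share was then 11.1%, 9.12% and 11.3% in WT and 10.54%, 13.04% and 11.6% in Ctcf+/- spleens, which overlapped, at a difference of 1.24 percentage points. The middle share without them was 33.3%, 35.6% and 37.4% in WT and 25.5%, 28.8% and 31.0% in Ctcf+/- spleens, still without overlap at a difference of -6.98. The distal share was then 55.6%, 55.3% and 51.3% in WT and 63.9%, 58.1% and 57.4% in Ctcf+/-, also without overlap.

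**Figure D3:**
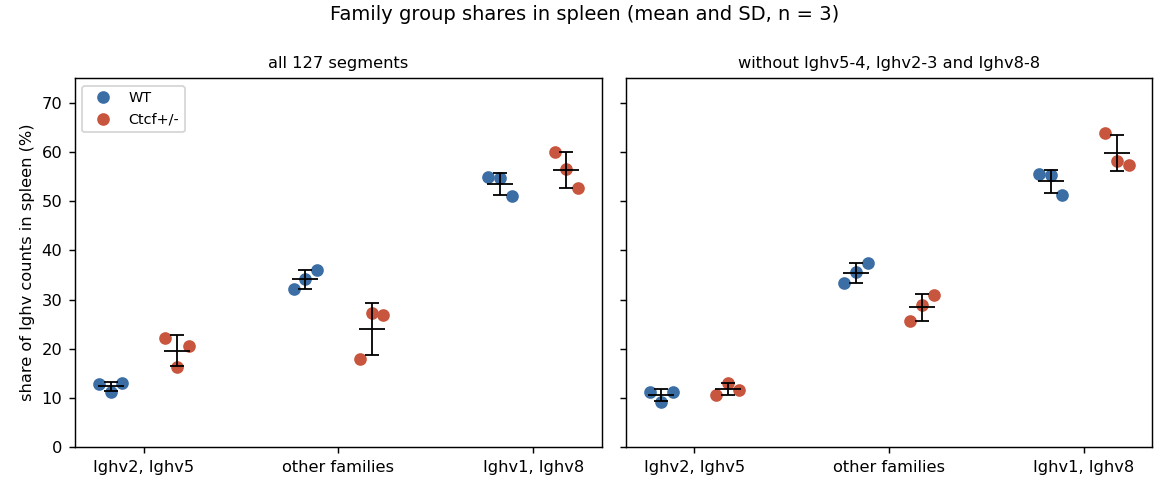
Share of spleen Ighv counts (%) taken by the proximal, middle and distal families in each library, with mean and SD of 3, for all 127 segments (left) and without 3 segments (right). The proximal groups lie apart on the left, at 11.2% to 12.9% and 16.2% to 22.2%, and overlap on the right.

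Of the 127 segments, 111 passed the filter on low counts in the spleen fit. No segment was called between the genotypes in spleen (edgeR quasi-likelihood test, adjusted p under 0.05), beside 0.242% of the 18615 genes tested. At an unadjusted p under 0.05 there were 20 segments, 14 higher and 6 lower in Ctcf+/-, beside 3.52% of all genes tested. Segments whose groups did not overlap numbered 9 higher and 5 lower, beside 4.35% and 2.29% of all genes tested. The median log2 fold change was 0.19 over the 111 segments and -0.0044 over all genes. DESeq2 called 6 segments of the 123 it gave an adjusted p, beside 0.85% of all genes, and limma-voom called 0.

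CPM and shares of the Ighv counts gave different splits. A share is a level divided by the summed Ighv level, which was above all WT libraries in Ctcf+/- replicates 1 and 3 and below them in replicate 2. As shares, 2 of the 111 segments (Ighv1-55 and Ighv8-8) lay higher and 23 lay lower in every Ctcf+/- spleen. Shares of the Ighv counts have no counterpart over all genes, so no background stands beside these counts. A high segment also lowers the shares of the others, and Ighv8-8 and Ighv5-4 took 15.1% and 13.8% in Ctcf+/- replicate 1. The 23 are therefore not read as a drop in usage. The 5 segments that were lower in CPM were also lower as shares, but none of the 9 that were higher in CPM were. Both scales are therefore given for the segments named next.

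The smallest p belonged to Ighv5-9-1, a proximal V gene 209 kb from the D segments. It stood at 5.12, 3.49 and 7.74 CPM in WT and 15.2, 17.9 and 14.9 CPM in Ctcf+/- spleens. In CPM all 3 Ctcf+/- libraries were above all WT libraries. As shares of the Ighv counts the groups overlapped, at 0.750%, 0.405% and 0.712% in WT and 0.749%, 2.75% and 0.953% in Ctcf+/- spleens. In CPM it differed by 1.55 ± 0.30 on the log2 scale (SE; edgeR adjusted p = 0.203; DESeq2 adjusted p = 0.0012).

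Ighv10-3, a middle family segment, had the next smallest p and was lower. It stood at 12.8, 15.5 and 11.3 CPM in WT and 4.33, 5.59 and 7.47 CPM in Ctcf+/- spleens, without overlap. Its shares of the Ighv counts did not overlap either, at 1.87%, 1.80% and 1.04% in WT and 0.213%, 0.860% and 0.479% in Ctcf+/-. In CPM its difference was -1.19 ± 0.25 on the log2 scale (SE; edgeR adjusted p = 0.290; DESeq2 adjusted p = 0.0033).

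Ighv9-4, of another middle family, was at 2.38, 2.33 and 3.07 CPM in WT and 4.75, 5.58 and 8.45 CPM in Ctcf+/- spleens (log2 fold change 1.27 ± 0.28 SE; edgeR adjusted p = 0.341; DESeq2 adjusted p = 0.0093). The distal Ighv1-66 was at 8.81, 2.70 and 4.49 CPM in WT and 1.59, 1.01 and 2.14 CPM in Ctcf+/- spleens (-1.75 ± 0.49 SE; edgeR adjusted p = 0.754; DESeq2 adjusted p = 0.0293). In CPM neither of these 2 overlapped, and edgeR called neither. As shares Ighv1-66 was lower in every Ctcf+/- library, while Ighv9-4 overlapped, at 0.348%, 0.271% and 0.282% in WT and 0.233%, 0.858% and 0.542% in Ctcf+/-.

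Ighv1-62-2 and Ighv1-71, the near copies, both lay higher in CPM in every Ctcf+/- library, and their shares overlapped. Ighv1-62-2 was at 2.04, 2.17 and 1.58 CPM in WT and 4.10, 4.08 and 14.2 CPM in Ctcf+/- spleens, highest in replicate 3 (edgeR adjusted p = 0.715; DESeq2 adjusted p = 0.0220). Ighv1-71 was at 1.98, 1.95 and 2.96 CPM in WT and 10.4, 3.69 and 4.14 CPM in Ctcf+/- spleens, highest in replicate 1 (edgeR adjusted p = 0.969). The library that was highest thus differed within the pair. The ratio of the Ctcf+/- to the WT mean was 3.87 for Ighv1-62-2 and 2.12 without Ctcf+/- replicate 3, and it was 2.64 for Ighv1-71 and 1.70 without Ctcf+/- replicate 1.

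Ighv2-3 was at 4.88, 13.01 and 9.38 CPM in WT and 18.7, 16.5 and 126 CPM in Ctcf+/- spleens, so its log2 fold change of 2.57 ± 0.87 (SE) rested largely on replicate 3 (edgeR adjusted p = 1.0; DESeq2 adjusted p = 0.0487). The ratio of means was 5.93, and 1.94 without that library. Ighv7-4, a middle family segment, went from 0.8 ± 0.283 CPM in WT to 1.57 ± 0.20 CPM in Ctcf+/- spleens (SD, n = 3), without overlap. Of the lower segments, Ighv1-12 went from 8.42 ± 4.32 to 3.37 ± 1.31 CPM and Ighv3-2 from 0.434 ± 0.103 to 0.173 ± 0.050 CPM. Ighv2-4 was at 1.08, 0.745 and 5.46 CPM in WT and 0.740, 0.207 and 0.439 CPM in Ctcf+/- spleens. The ratio of its means was 0.190, and 0.506 without WT replicate 3. Ighv2-4 and Ighv2-3 are both proximal and lay on opposite sides.

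**Figure D4:**
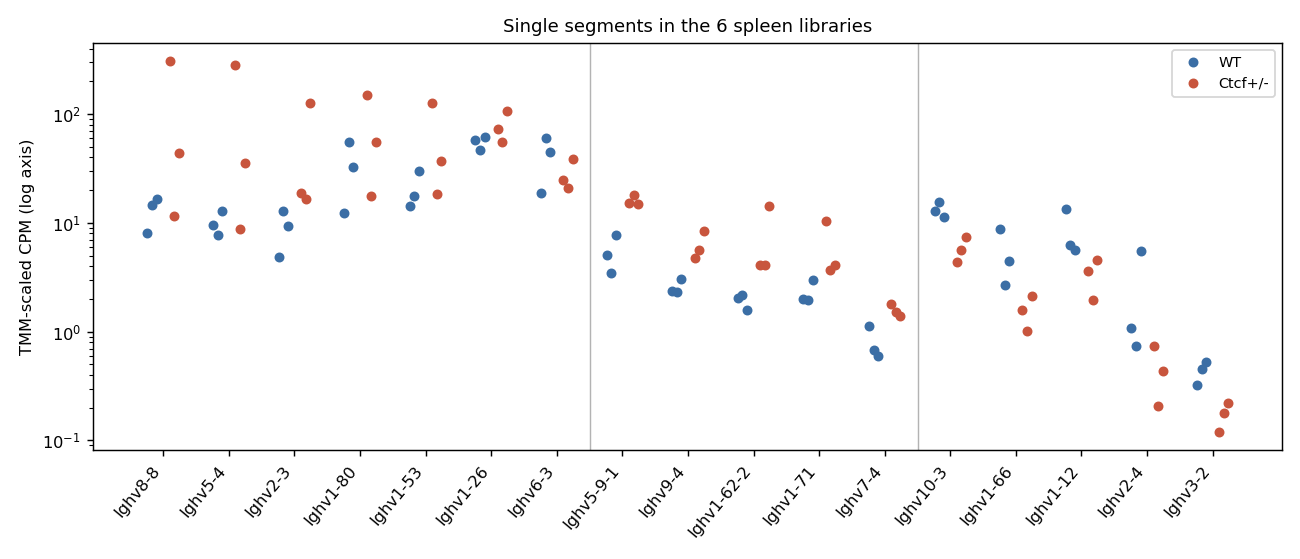
TMM-scaled CPM (log axis) of 17 segments in the 3 WT and 3 Ctcf+/- spleen libraries. Segments that led a library or had a high mean in spleen are on the left. Then come other segments whose groups do not overlap, higher and lower in Ctcf+/-. Ighv5-9-1 lies at 3.49 to 7.74 CPM in WT and 14.9 to 17.9 CPM in Ctcf+/-, while the high points of Ighv8-8 (307 CPM) and Ighv5-4 (282 CPM) are 1 library.

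By position, the 18 proximal segments tested had a median log2 fold change of 0.20, the 30 middle segments -0.03 and the 63 distal segments 0.24. Within the proximal families 7 of 18 had an unadjusted p under 0.05, beside 3.52% of all genes tested. The log2 fold changes of the 18 ran from -2.38 for Ighv2-4, which was high in WT replicate 3, to 3.44 for Ighv5-4, which was high in Ctcf+/- replicate 1. Of the 9 tested Ighv5 segments 8 had a log2 fold change above 0, with a median of 1.49, and of the 9 Ighv2 segments 4 did, with a median of -0.41. Over the 111 tested segments the order from the D segments and the log2 fold change had a Spearman rho of 0.07.

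In kidney and liver the few Ighv counts were spread over fewer segments. The summed level was 13.8, 1.97 and 2.19 CPM in WT and 20.4, 2.90 and 1.73 CPM in Ctcf+/- kidneys, high in replicate 1 of both genotypes. In liver it was 3.04, 2.16 and 1.82 CPM in WT and 5.28, 8.34 and 2.26 CPM in Ctcf+/-, high in replicates 1 and 2 of Ctcf+/-. Igha was high in the same libraries, at 37.2 and 79.5 CPM in the 2 kidneys against 5.75 to 10.3 CPM in the other 4. In liver Igha was at 18.1 and 26.4 CPM in Ctcf+/- replicates 1 and 2 and at 1.69 to 5.99 CPM in the other 4.

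Leading shares in kidney were 12.7% for Ighv1-85 (95% Wilson interval 10.97% to 14.6%), 9.71% for Ighv3-6 (6.15% to 15.0%) and 8.37% for Ighv2-9 (5.36% to 12.8%) in WT. In Ctcf+/- kidneys they were 25.7% for Ighv1-80 (23.8% to 27.7%), 14.5% for Ighv1-26 (10.6% to 19.4%) and 15.2% for Ighv1-75 (10.6% to 21.3%). The Ctcf+/- kidneys were thus all above the WT kidneys in their leading share, but the intervals overlapped for several of them.

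In liver the leading segments were Ighv1-80 with 7.28% (4.46% to 11.7%), Ighv6-3 with 6.45% (3.31% to 12.2%) and Ighv7-3 with 10.8% (6.29% to 18.0%) in WT. In Ctcf+/- livers they were Ighv8-8 with 27.3% (23.4% to 31.5%), Ighv8-8 with 23.4% (20.3% to 26.9%) and Ighv14-3 with 7.09% (3.77% to 12.9%). Ighv8-8 was thus the leading segment of 2 livers and of the spleen of Ctcf+/- replicate 1. Expected at 100 counts, the number of segments was 35.1 to 49.1 in spleen, 23.1 to 41.9 in kidney and 27.2 to 47.7 in liver, so at equal depth the ranges overlapped.

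In kidney 10 segments passed the filter, 0 were called by edgeR (beside 0.0211% of genes tested), 0 had an unadjusted p under 0.05 (beside 6.44%), and DESeq2 called 0. In liver 2 segments passed, 0 were called (beside 0.0193%) and 0 had an unadjusted p under 0.05 (beside 4.56%). DESeq2, which gave 6 segments an adjusted p, called Ighv8-8 in liver (log2 fold change 4.04 ± 0.89 SE, adjusted p = 0.0030), beside 0.437% of all genes. So did edgeR without Ctcf+/- replicate 3 (4.56 ± 0.38 SE, adjusted p = 0.0213). Ighv8-8 was at 0.0590, 0.0869 and 0.0655 CPM in WT and 1.44, 1.95 and 0.0712 CPM in Ctcf+/- livers, so 2 libraries were high and the third lay in the WT range. The DESeq2 call was lost without Ctcf+/- replicate 2 (log2 fold change 3.42 ± 1.14 SE, adjusted p = 0.707), without Ctcf+/- replicate 1 (3.85 ± 1.17, adjusted p = 0.234), and without WT replicate 1 (adjusted p = 0.0694) or 3 (adjusted p = 0.183). In brain and muscle no segment passed the filter, and 0.0157% and 0.0249% of the genes tested there were called.

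The spleen libraries were alike in the ranks of their segments, with Spearman rho of 0.88 to 0.93 between libraries over the 127 segments. The median was 0.92 for the 6 pairs of 1 genotype and 0.90 for the 9 pairs of different genotype. Against this shared background, kidney and liver libraries resembled particular spleens. Of the 12 kidney and liver libraries, 10 had their highest rho, among the 6 spleens, with the spleen of the same genotype and number. These correlations are over segments within libraries of 111 to 1929 Ighv counts and carry no p.

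The 2 exceptions were the livers of Ctcf+/- replicates 2 and 3. Replicate 3 had 127 Ighv counts and a rho of 0.64 with the spleen of Ctcf+/- replicate 1 and 0.63 with that of its own number. Replicate 2 had 619 counts and a rho of 0.77 with the spleen of Ctcf+/- replicate 1 and 0.67 with that of its own number.

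A second measure, chosen after the values were seen, took the log2 deviation of each share from its median over the spleens, for the 80 segments with at least 1000 spleen counts. By this measure 10 of 12 libraries were again closest to the spleen of their genotype and number, with r of 0.18 to 0.60. The kidney of WT replicate 3 was closest to the spleen of WT replicate 1 (0.24 against 0.20 for its own number). The library labelled Ctcf+/- liver replicate 2 had r of 0.65 with the spleen of Ctcf+/- replicate 1 and 0.10 with the spleen of Ctcf+/- replicate 2. It also had r of 0.69 with Ctcf+/- liver replicate 1 and 0.53 with Ctcf+/- kidney replicate 1, and 0.01 with Ctcf+/- kidney replicate 2.

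Some of the segments behind this can be named. Ighv8-8 took 15.1%, 23.1% and 27.3% of the Ighv counts in the spleen, kidney and liver of Ctcf+/- replicate 1 and 23.4% in the library labelled Ctcf+/- liver replicate 2, but 1.78% in the spleen of Ctcf+/- replicate 2. Ighv1-53 took 14.9% in that liver library, 11.8% in the kidney of Ctcf+/- replicate 1 and 2.87% in the spleen of Ctcf+/- replicate 2. Ighv1-11, at 2.67% in the spleen of Ctcf+/- replicate 2, took 7.02% in the kidney of the same number, and Ighv1-75 took 3.06% and 15.2% in the spleen and kidney of Ctcf+/- replicate 3. Over all genes the livers of Ctcf+/- replicates 1 and 2 differed least, with a chi-square of 33.5 per degree of freedom. The other pairs of Ctcf+/- livers had 140 to 194 and pairs of WT livers 136 to 201. Ctcf+/- replicates 1 and 2 were also the closest Ctcf+/- pair in brain (15.4 against 47.7 and 54.2) and kidney (46.9 against 111 and 116). In muscle (135) and spleen (567) they were not. Whether the livers of Ctcf+/- replicates 1 and 2 come from 1 mouse was not tested. If they do, the liver comparison holds 2 distinct Ctcf+/- mice and the high Ighv8-8 of both livers is that of 1 animal. The replicate block then pairs other libraries. The counts of these 2 livers were also summed and taken as 1 sample. DESeq2 then did not call Ighv8-8 in liver (log2 fold change 3.64 ± 1.14 SE, adjusted p = 0.369). Neither DESeq2 nor edgeR called any segment there.

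Kidney and liver shares also departed from those of the spleen with the same number. Ighv1-85 took 12.7% in the kidney of WT replicate 1 and 0.611% in the spleen of that number. Ighv1-85 also took 7.91% and 5.98% in the livers of Ctcf+/- replicates 1 and 2, against 0.870% in the spleen of Ctcf+/- replicate 1. Ighv5-4, in contrast, took 13.8% in that spleen and 5.05% in the liver of the same number.

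**Figure D5:**
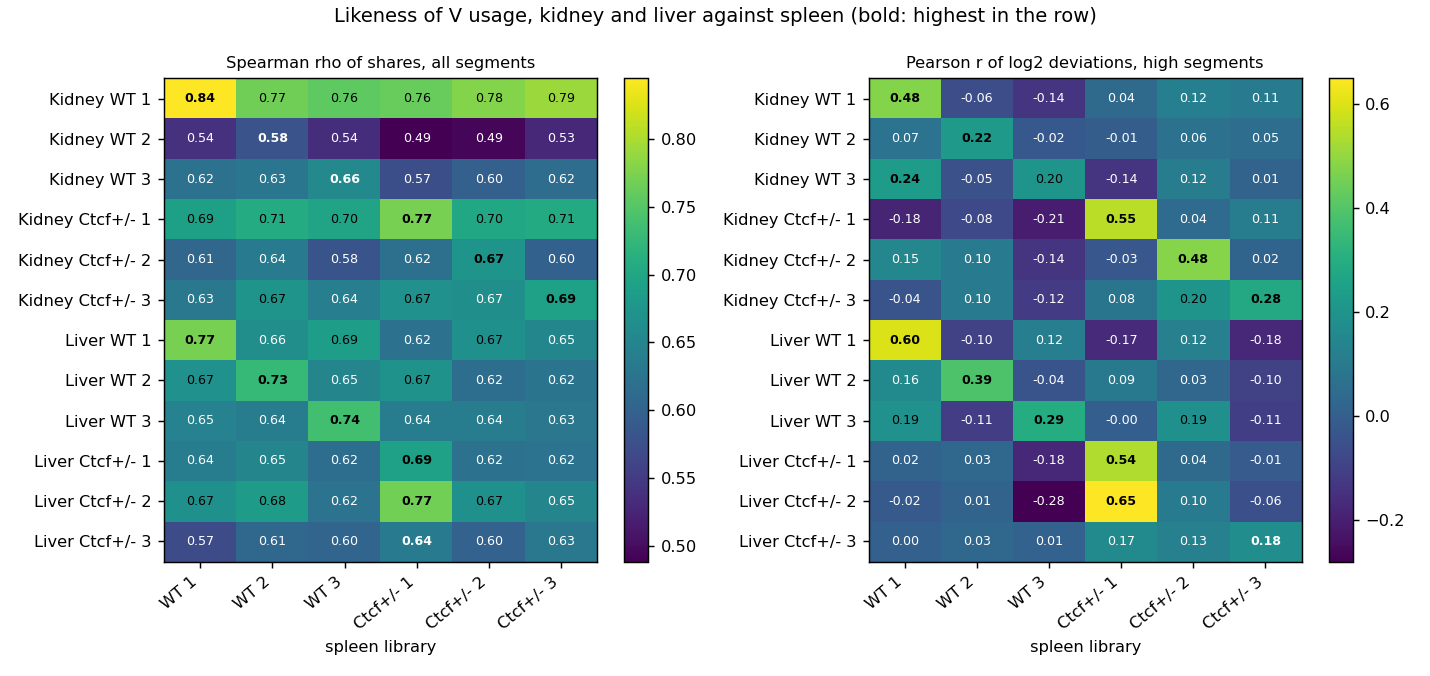
Likeness of V usage between each kidney or liver library (rows) and each spleen library (columns), as Spearman rho of shares over 127 segments (left) and as Pearson r of log2 deviations over 80 segments (right), with the highest value of a row in bold. In each panel 10 of 12 rows are highest in the column of their own genotype and number, and liver Ctcf+/- 2 is highest in the column of Ctcf+/- 1.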

How the data were processed

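Per the file headers, the deposited tables hold counts of fragments over exons (Ensembl 86, GRCm38), not normalized, from featureCounts 1.5.0-p3 run without strand. That command drops multi-mapping fragments and those shared between genes, and the loss in near-identical segments was not measured here. The submitters' processing notes name FastQC, STAR and DESeq2. The read length is not given in the sources used here.

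Counts were tested per tissue with edgeR 4.0.16 (R 4.3.3): filterByExpr, TMM scaling, the quasi-likelihood test of Ctcf+/- against WT and Benjamini-Hochberg adjustment over all genes tested. A gene is called at an adjusted p under 0.05. Values per spleen library were tested by exact 2-sided permutation (scipy 1.17.1), adjusted over 9 values. On simulated spleen counts of 18288 genes the test called 185 of 199 changed genes and 6 others. The simulation gave all changed genes the same fold change and all genes the same spread. It does not give the power of the test for the Ighv segments, whose own spread was not simulated. DESeq2 1.42.0, limma-voom 3.58.1, other scalings, other filters, a fit of all libraries, the replicate block and leaving out each library were alternatives.

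Members, families and gene lists were chosen with earlier results of these data known. One gene of the B cell marker list is not reported here and was left out of the list's values. Named segments are the 10 highest in spleen, the leading segment of each library with at least 100 Ighv counts, those called, up to 5 in each direction with the smallest p and groups that do not overlap, and those at the ends of the locus and next to the count minimum. Segments named for a dominant share or for a family, and Ighv1-18, Ighv1-20, Ighv1-78, Ighv8-5 and Ighv12-3, were chosen after their values were seen. Sequences came from GENCODE M21, where all 127 segments matched with the same coordinates. WT and Ctcf+/- libraries of 1 number had deviations that correlated at 0.207, 0.383 and 0.537 in brain and 0.209, 0.190 and 0.212 in kidney. In these tissues each WT library correlated best with the Ctcf+/- library of its own number. In liver and muscle WT replicate 1 did not, and in spleen none did. Replicates within a group had a chi-square of at least 15.4 per degree of freedom, and none was merged.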

Additional observations from a re-analysis of the deposited data

How the results depend on the processing

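The count of segments called between genotypes in spleen was 0 by edgeR and limma-voom and 6 by DESeq2 with its own size factors. In liver it was 0, but 1 (Ighv8-8) by DESeq2 with its own size factors. It was also 1, of 10 tested, by edgeR without Ctcf+/- replicate 3, so over the libraries left out it ran from 0 to 1. The share of all genes called in that edgeR fit is not given here. Further DESeq2 fits in liver were added after seeing the data. The count was 3 without Ctcf+/- replicate 3, beside 158 of 15781 genes, and 1 without WT replicate 2, beside 91 of 15918 genes. In each of these fits 6 segments had an adjusted p. The count was 0 without each other library, and it was 0 with Ctcf+/- replicates 1 and 2 summed. The cause was not tested. In brain, kidney and muscle it was 0 under every alternative run. With 1 library left out, 0 segments were called in spleen and 9 to 33 of the 111 to 113 tested had an unadjusted p under 0.05. In the paired fit with a replicate block, 0 segments were called in each tissue. At an unadjusted p under 0.05 that fit had 14 of 111 segments tested in spleen, 2 of 10 in kidney and 1 of 2 in liver. The shares of all genes in these fits are not given here, so nothing is read from these counts. In spleen, liver and muscle the same-number correlations did not all pass 0.1 (-0.47, -0.23 and 0.47 in spleen). The count higher in spleen than elsewhere was 111 of 111 tested. Under the alternatives it ran from 101 to 126, with different numbers tested. It was 101 of 101 in WT libraries only, 101 of 127 by DESeq2 and 126 of 127 with at least 1 count as the filter. Most segments could pass the main filter only through spleen, so nothing is read from this range.

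In spleen the 9 single values tested kept their direction under the alternatives run for each. With 1 library left out, the Ctcf+/- minus WT difference ran from 0.23 to 1.05 for the log2 summed level, from -18.4 to -4.49 for the effective number, from 1.27 to 4.76 points for the largest share and from 1.05 to 4.71 points for the distal share. For the proximal share it ran from 6.03 to 9.01 and for the middle share from -11.7 to -7.09. For the parts of the locus it ran from 0.26 to 4.09 (near), -12.6 to -2.85 (middle) and 0.45 to 8.90 (far). No segment overlapped another gene's exons, so that alternative removed nothing. Depth limits kidney and liver, where a share rests on 111 to 1929 counts.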
